A study of Mus musculus with 4 samples.

Results

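Forkhead factors are DNA-binding proteins that share the winged-helix forkhead domain, and the mouse genes were taken as every protein-coding gene named Fox with a letter and a number in the GENCODE M21 basic annotation, with 1 exception. This gave 43 of 21938 protein-coding genes, in 19 subfamilies named by their letter. A region of open chromatin was counted for a gene when its midpoint lay nearest to a transcription start site (TSS) of that gene, or when it overlapped 1 kb either side of such a TSS. In all, 518 of 121574 open regions belonged to forkhead genes by this rule.

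The regions came from ATAC-seq, which reads out accessible DNA by where a transposase can insert adapters, of dental mesenchymal cells from the incisors of 4-week-old wild-type C57BL/6 mice that received no treatment. The 4 deposited samples have titles that differ by lane alone, 1 to 4, and stood in the tables under 1 shared column, so they were treated as 1 library. The labels do not give the number of animals, nor how the mesenchyme was separated from other tissue of the tooth. There was 1 group and no contrast, so no test was made, and the intervals given are exact 95% intervals that cover counting error only.

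Forkhead proteins bind short AT-rich sites, and several of them, above all the FoxA proteins, can bind sites on closed chromatin. FoxF and FoxC genes act in mesenchyme and in neural crest, the embryonic source of dental mesenchyme, and FoxO proteins are held out of the nucleus when insulin and IGF signalling activates AKT. Other members mark distant lineages, such as Foxa2 in endoderm, Foxn1 in thymic epithelium and Foxp3 in regulatory T cells.

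The library held 2297894 reads in regions, with a median of 7 reads per region, and 7101 regions held 0 reads. Of 5 genes that mark dental mesenchyme, 4 had an open promoter, with 164 promoter reads at Msx1, 138 at Pax9, 134 at Msx2 and 51 at Lhx8, and Barx1 had none. Epithelial markers were open in 4 of 5 cases, with 10 to 28 promoter reads at Krt14, Krt5, Cdh1 and Epcam, and Amelx had no region at its promoter. Endothelial markers had a promoter region in 3 of 4 cases, with at most 15 reads, and none of the 4 leukocyte markers had one. The endothelial region at Emcn held 0 reads. Over all protein-coding genes, 64.6% had an open promoter. Summed promoter reads were 487 for the mesenchymal list, 84 for the epithelial, 28 for the endothelial and 0 for the leukocyte list. Over all regions of a gene, Msx2 held 1061 reads, Msx1 547, Pax9 463, Lhx8 433 and Barx1 69. Epithelial markers held 8 at Amelx to 158 at Epcam. Cdh5 held 1032, Emcn 267, Pecam1 37 and Tie1 16. Ptprc held 591, and the leukocyte genes Spi1, Csf1r and Tyrobp held 20, 12 and 2. The promoter sums are therefore no measure of how pure the cells were. In such a bulk library, fewer cells with an open site and less opening per cell cannot be told apart.

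Promoters of forkhead genes differed widely in letters and in reads, and 5 of them are printed to show the range. Each runs from 250 bases before to 50 bases after a RefSeq start site on the gene's own strand (GRCm38.p6), with every CG pair in capitals. Foxo3 had the most promoter reads of the members in windows of 1 kb, Foxd2 had the most among the mesenchymal and neural crest genes, and Foxf2 lies in a cluster described further on. Foxa2 and Foxn1 had no region within 1 kb of a start site, and they contrast in CG content, with 23 and 8 CG pairs in the printed stretch, against 35 in Foxo3, 26 in Foxd2 and 27 in Foxf2. The table holds 3 promoters of Foxa2, and the others have 13 and 12 CG pairs.
Foxo3, chr10:42276646-42276945, minus strand: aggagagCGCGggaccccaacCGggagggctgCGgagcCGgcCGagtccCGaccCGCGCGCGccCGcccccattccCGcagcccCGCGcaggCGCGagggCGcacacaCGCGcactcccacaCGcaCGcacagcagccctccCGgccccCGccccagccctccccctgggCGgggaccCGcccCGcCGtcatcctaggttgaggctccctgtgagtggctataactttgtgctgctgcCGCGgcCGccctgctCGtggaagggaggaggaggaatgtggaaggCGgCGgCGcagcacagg
Foxd2, chr4:114908849-114909148, minus strand: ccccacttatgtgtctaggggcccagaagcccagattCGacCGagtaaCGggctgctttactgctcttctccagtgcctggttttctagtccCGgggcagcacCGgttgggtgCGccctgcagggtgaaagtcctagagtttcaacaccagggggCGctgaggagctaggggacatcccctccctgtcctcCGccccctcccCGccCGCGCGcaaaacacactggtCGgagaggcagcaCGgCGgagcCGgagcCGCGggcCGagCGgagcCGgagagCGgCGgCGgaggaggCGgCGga
Foxf2, chr13:31625566-31625865, plus strand: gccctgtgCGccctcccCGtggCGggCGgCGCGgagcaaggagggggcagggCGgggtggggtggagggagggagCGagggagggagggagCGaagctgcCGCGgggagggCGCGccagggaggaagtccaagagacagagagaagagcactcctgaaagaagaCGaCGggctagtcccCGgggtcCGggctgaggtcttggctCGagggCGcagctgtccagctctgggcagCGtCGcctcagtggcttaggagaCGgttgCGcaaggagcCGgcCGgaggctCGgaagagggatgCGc
Foxa2, chr2:148045899-148046198, minus strand: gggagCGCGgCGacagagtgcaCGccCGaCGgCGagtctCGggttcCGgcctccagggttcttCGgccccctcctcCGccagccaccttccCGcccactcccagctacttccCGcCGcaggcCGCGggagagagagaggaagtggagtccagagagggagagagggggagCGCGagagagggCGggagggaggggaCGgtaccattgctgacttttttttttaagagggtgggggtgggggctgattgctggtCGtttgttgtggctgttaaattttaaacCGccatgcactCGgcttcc
Foxn1, chr11:78386559-78386858, minus strand: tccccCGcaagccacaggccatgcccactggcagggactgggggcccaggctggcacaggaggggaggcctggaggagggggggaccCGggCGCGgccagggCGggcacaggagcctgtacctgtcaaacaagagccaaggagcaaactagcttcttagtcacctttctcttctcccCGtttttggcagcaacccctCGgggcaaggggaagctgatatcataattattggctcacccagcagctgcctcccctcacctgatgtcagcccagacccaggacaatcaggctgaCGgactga

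Away from promoters, 3 regions are printed as the 300 bases at their centre, on the plus strand of mm10, with the forkhead motif TGTTTAC, or its complement GTAAACA, in capitals where present. The region upstream of Foxj2 held the most reads of all 518. The region downstream of Foxi3 held the most reads of those with the motif, and the region downstream of Foxf2 is the largest with the motif within 50 kb of the FoxF and FoxC clusters.
Foxj2, 8.71 kb upstream, chr6:122811057-122811356: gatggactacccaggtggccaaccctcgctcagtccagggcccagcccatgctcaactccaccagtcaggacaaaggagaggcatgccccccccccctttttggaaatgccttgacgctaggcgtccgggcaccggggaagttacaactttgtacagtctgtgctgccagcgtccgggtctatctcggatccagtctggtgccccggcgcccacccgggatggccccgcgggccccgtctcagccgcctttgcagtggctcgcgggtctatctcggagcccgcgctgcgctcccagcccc
Foxi3, 19.4 kb downstream, chr6:70975879-70976178: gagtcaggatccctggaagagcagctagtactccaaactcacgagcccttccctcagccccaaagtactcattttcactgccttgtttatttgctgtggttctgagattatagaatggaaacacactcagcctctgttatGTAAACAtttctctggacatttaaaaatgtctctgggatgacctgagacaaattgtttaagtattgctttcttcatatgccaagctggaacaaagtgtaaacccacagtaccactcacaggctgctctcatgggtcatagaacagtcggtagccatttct
Foxf2, 6.78 kb downstream, chr13:31632442-31632741: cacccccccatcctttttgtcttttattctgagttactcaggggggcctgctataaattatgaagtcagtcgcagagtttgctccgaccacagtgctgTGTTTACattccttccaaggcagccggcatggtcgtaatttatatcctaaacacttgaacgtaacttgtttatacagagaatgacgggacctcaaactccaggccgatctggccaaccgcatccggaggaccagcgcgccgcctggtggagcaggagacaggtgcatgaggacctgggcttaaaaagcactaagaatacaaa

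An open promoter, meaning a listed region that overlaps 1 kb either side of a TSS, was found at 30 of 43 forkhead genes, or 69.8%, against 64.6% of all protein-coding genes. The open members covered 15 of the 19 subfamilies. Those without an open member included FoxH, FoxQ and FoxR, and each of them holds 1 or 2 genes. The 13 members without an open promoter included Foxa2, Foxb1, Foxh1, Foxi1, Foxi2, Foxl1, Foxn1, Foxn4, Foxp3, Foxq1, Foxr1 and Foxr2. Of the 13, Foxh1, Foxp3, Foxr1 and Foxr2 had no region at all, and the other 9 had regions elsewhere. A gene without a region was not listed, which is no measured absence of open chromatin.

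Forkhead genes held 8017 reads, or 0.349% of reads in regions (0.341 to 0.357, exact binomial), from 0.196% of genes. Reads per gene had a median of 85 over the 43 members, against 61 over all protein-coding genes. More reads than the median gene with a region, which held 92, were found at 21 members, or 48.8%, against 39.1% of all genes. This order depended on the measure: per kilobase of region 14 members, or 32.6%, lay above the median gene, against 39.4% of all genes, and per kilobase of nearest sequence 18, or 41.9%, against 39.4%. At promoters alone the members stood close to other genes: 14 of 43, or 32.6%, exceeded the median open promoter of 67 reads, against 32.2% of all genes. The sequence closer to a member than to any other coding gene was also longer, with a median of 96.6 kb for forkhead genes and 47.0 kb for all genes. Per kilobase of that sequence, forkhead genes held 0.983 reads, against 0.843 over the genome.

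**Figure D1:**
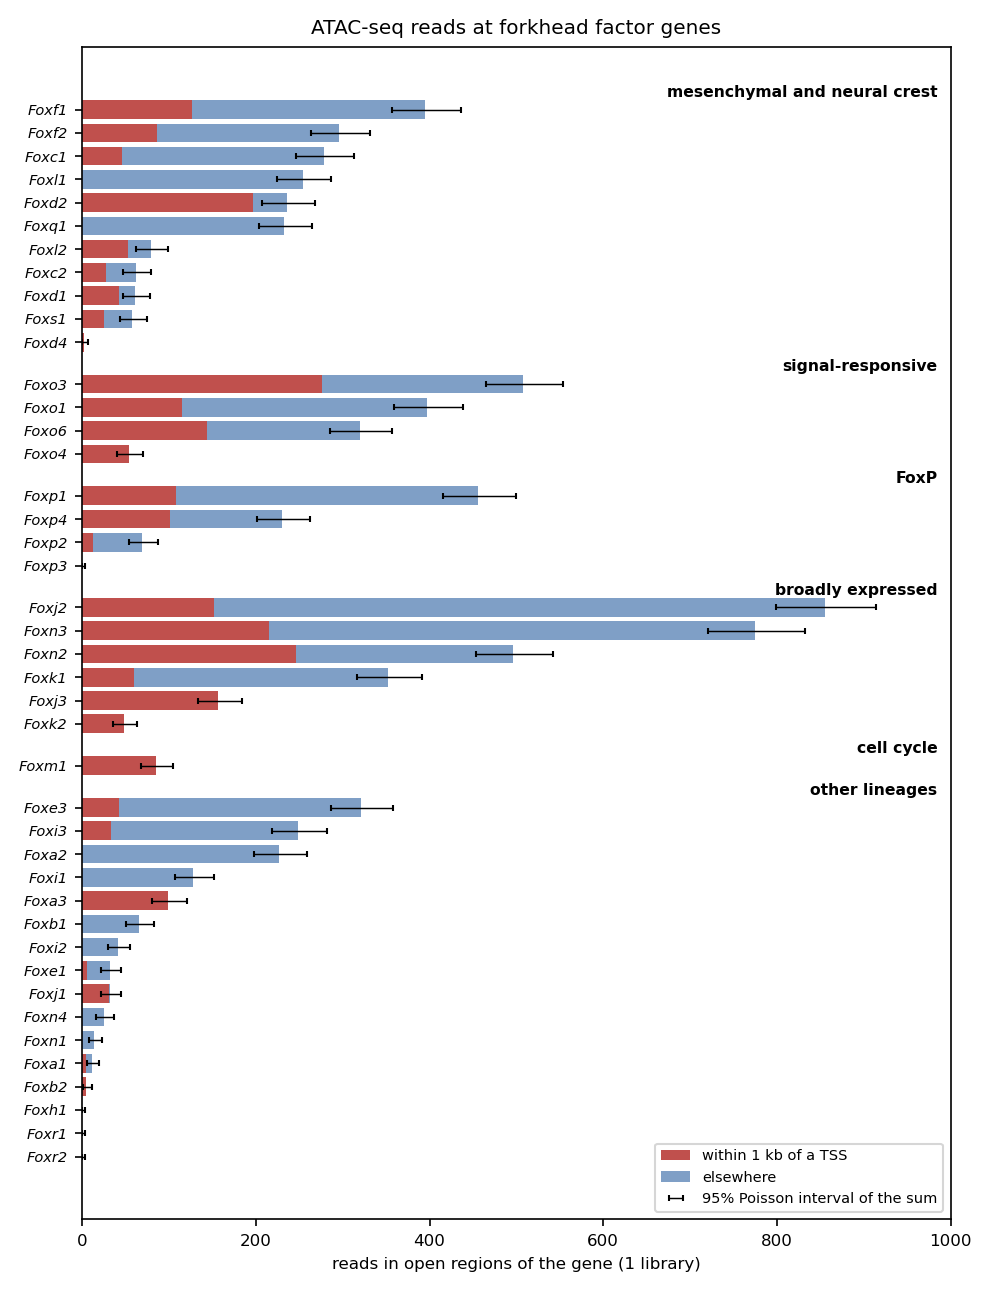
Reads in open regions of 42 forkhead genes in 1 library, grouped by role, with reads within 1 kb of a TSS and reads elsewhere stacked. Bars end at the sum and whiskers are exact 95% Poisson intervals; Foxj2 (855) and Foxn3 (775) stand highest, and Foxh1, Foxp3, Foxr1 and Foxr2 are at 0.

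Subfamilies C, F, D, L, Q and S were described together, since most of their members act in mesenchyme, neural crest or vessels. In this group 9 of 11 genes had an open promoter, against 64.6% of all genes. All but Foxd4, Foxq1 and Foxs1 have promoters rich in CG pairs (defined with the FoxO genes below), and 94.4% of all such genes were open. The 11 genes held 1954 reads, of which 605 lay at promoters and 1349 elsewhere. Foxd2, a gene of facial and kidney mesenchyme, had 197 promoter reads (170 to 227), of which 173 lay in 1 region at chr4:114908644-114909540. Foxf1, which acts in the mesenchyme of gut and lung, had 395 reads (357 to 436) in 21 regions along 185 kb, with 126 (105 to 150) at its promoter. Foxf2, a gene of palate mesenchyme, had 296 (263 to 332) in 17 regions along 124 kb, with 86 (68.8 to 106) at its promoter. Foxc1, which acts in the neural crest of eye and skull, had 278 (246 to 313) in 32 regions, and Foxc2, a gene of mesenchyme and lymphatic vessels, had 62 (47.5 to 79.5) in 3 regions. At promoters, Foxl2, a gene of the ovary and eyelid, had 53 reads, Foxc1 46, Foxd1 42, Foxc2 28, Foxs1 25 and Foxd4 2. Only Foxd2, Foxf1 and Foxf2 of the 11 exceeded the median open promoter. Foxd1 marks the stroma of the kidney, Foxs1 is known from pericytes and sensory neurons, and Foxd4 acts in early neural ectoderm. Foxl1, a gene of gut mesenchyme, and Foxq1, known from hair and stomach epithelium, had no region at the promoter but 254 and 233 reads elsewhere.

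Genes of this group lie in 2 paralogous clusters, Foxq1, Foxf2 and Foxc1 on chromosome 13 and Foxf1, Foxc2 and Foxl1 on chromosome 8. A window from 50 kb before the first to 50 kb after the last TSS, chr13:31506134-31856633, held 45 regions and 622 reads (574 to 673). The window on chromosome 8, chr8:121034386-121177940, held 20 regions and 472 reads (430 to 517). Density was 1.77 reads per kb (1.64 to 1.92) on chromosome 13 and 3.29 (3.0 to 3.6) on chromosome 8. Windows with the same 50 kb margin around every protein-coding gene had a median of 1.44 and an upper quartile of 2.83 reads per kb. That puts the chromosome 13 window at percentile 57.5 and the chromosome 8 window at 80.2. Each of those windows was set on 1 gene, while the cluster windows were set on 3 genes over 350 and 144 kb. The percentiles thus compare windows of unlike length and gene content. On chromosome 13 the largest region was the Foxf2 promoter with 72 reads at chr13:31625306-31625989, followed by 51 reads at chr13:31618303-31618996, 7.17 kb upstream in the noncoding gene 1700018A04Rik. The Foxc1 promoter region, chr13:31806308-31806779, held 36 reads, as many as a region at chr13:31652275-31652611, 26.6 kb downstream of Foxf2. No region overlapped 1 kb either side of the Foxq1 TSS, though the promoter of A530084C06Rik, which overlaps Foxq1, held 47 reads, with 28 in its largest region. A region of 21 reads at chr13:31557872-31558302 also lies within the Foxq1 gene, further than 1 kb from its TSS. The largest region assigned to Foxq1 was chr13:31451946-31452605, 104 kb upstream, with 41 reads.

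On chromosome 8 the Foxf1 promoter region, chr8:121083125-121084582, held 126 reads. Upstream, in the noncoding gene Fendrr that starts beside Foxf1, regions 13.4 and 26.3 kb from the Foxf1 TSS held 66 and 48 reads. The Foxc2 promoter region, chr8:121116024-121116424, held 27 reads, and a region 2.70 kb upstream of its TSS held 34. Foxl1 had no promoter region, and the region nearest to its TSS, 2.37 kb upstream, held 32 reads. Its largest region, chr8:121300987-121301897, held 48 reads 174 kb downstream. In both clusters the FoxF promoter held more reads than the FoxC promoter, with 126 and 28 reads on chromosome 8 and 86 and 46 on chromosome 13. Another pair of neighbours, Foxd2 and Foxe3 on chromosome 4, lay in a window with 557 reads (512 to 605), or 4.75 per kb (4.37 to 5.17), at percentile 90.2. It was not planned with the FoxF and FoxC windows. It holds the large Foxd2 and Foxe3 regions described elsewhere here, which its percentile restates.

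**Figure D2:**
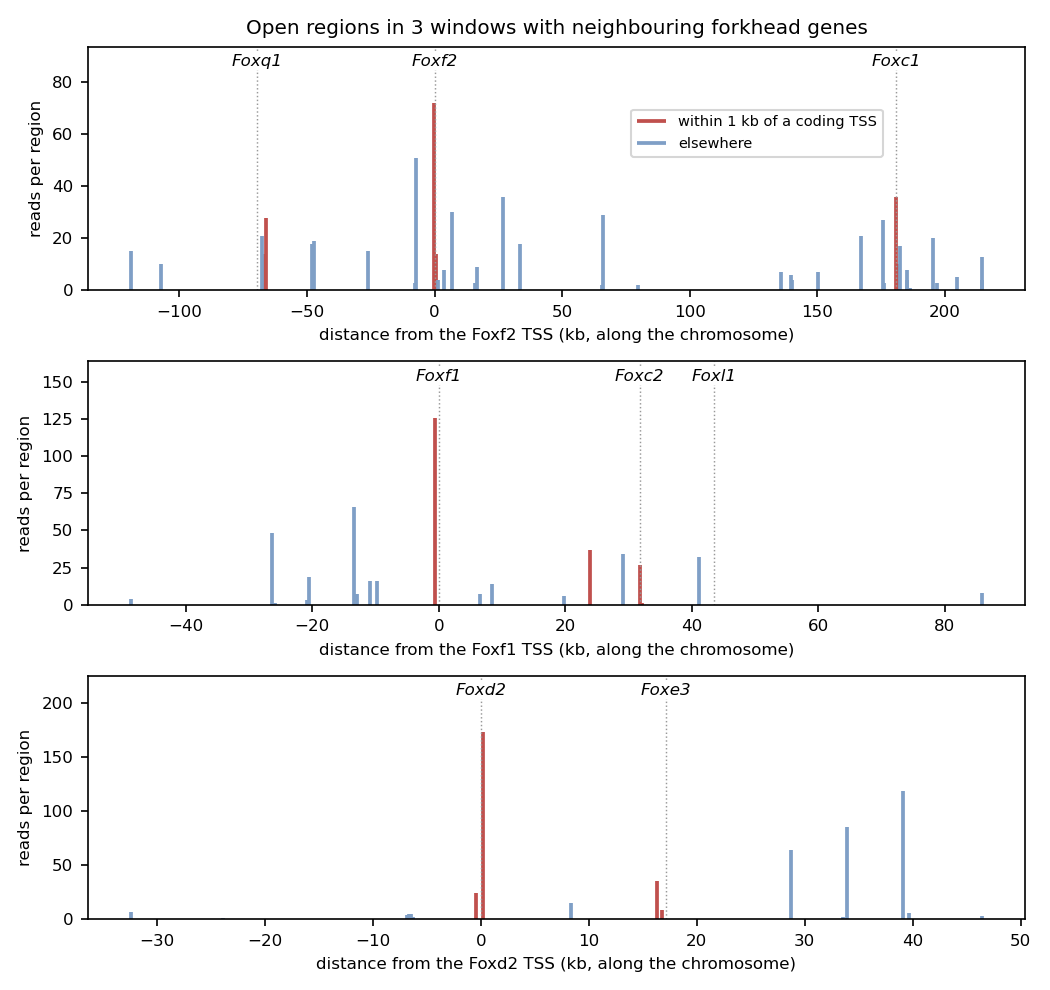
Reads per region in the 3 windows with neighbouring forkhead genes, against distance in kb along the chromosome from the TSS of Foxf2 (top), Foxf1 (middle) and Foxd2 (bottom), with TSSs of the forkhead genes dotted. The FoxF and Foxd2 promoters are the tallest regions of their windows (72, 126 and 173 reads), and no region stands at the Foxq1 or Foxl1 TSS.

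FoxO genes, the transcription factors held in the cytoplasm by AKT, were open in 4 of 4 cases and held 46.1% of their 1279 reads at promoters, against 32.4% for all forkhead genes. Their promoters are rich in CG pairs (at least 0.6 times the number that base composition gives), and 94.4% of all genes with such promoters were open. Foxo3 had 276 promoter reads (244 to 311), the most of the members, though the interval overlaps that of Foxn2 (216 to 279). Of the 276, 182 lay in a region 1.21 kb upstream, chr10:42277590-42278335, and 80 in a region across the TSS, chr10:42276507-42276900. Foxo6, best known from brain, had 144 (121 to 170), with 143 of them in 1 region at chr4:120287623-120288237. Foxo1 had 115 (94.9 to 138) and Foxo4 had 54 (40.6 to 70.5). In total reads the order was Foxo3 with 508 (465 to 554), Foxo1 with 397 (359 to 438), Foxo6 with 320 (286 to 357) and Foxo4 with 54, and the intervals of these neighbours did not overlap. All of the Foxo4 reads lay at its promoter. With windows of 500 bp in place of 1 kb, Foxo3 kept 81 promoter reads, since its larger region lies further upstream, and Foxn2 came first with 208.

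Genes that act on FoxO proteins, such as the AKT kinases, were open at the promoter in 12 of 12 cases, against 64.6% of all genes and 94.4% of genes with CG-rich promoters, which all 12 have. Their median was 217 promoter reads, against 67 over open promoters and 27 over all protein-coding genes. Ywhaz, which encodes a 14-3-3 protein that binds phosphorylated FoxO, had 281 promoter reads, and Irs2, an insulin receptor adaptor, had 260. Akt1 had the fewest, 37. Known FoxO targets were open in 15 of 16 cases, with a median of 184, and 14 of the 16 have CG-rich promoters. Cited2 had 462 promoter reads, Gadd45a 389, and Ccng2 and Trib1 358 each. Trim63, a muscle ubiquitin ligase, was the target without a promoter region. More promoter reads than the median open promoter were found at 10 of the 12 upstream genes and 14 of the 16 targets, against 32.2% of all genes. The values of 67, 27 and 32.2%, here and for the FoxM1 targets below, cover promoters of every CG content. They were not taken for CG-rich promoters alone, so they do not show whether these lists differ from other genes with such promoters.

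FoxP genes were open in 3 of 4 cases, against 64.6% of all genes. The open genes, Foxp1, Foxp2 and Foxp4, have CG-rich promoters, and 94.4% of all such genes were open. Foxp3 has none, and 34.1% of all genes without a CG-rich promoter were open. Promoter reads were 108 (88.6 to 130) at Foxp1, 101 (82.3 to 123) at Foxp4 and 12 (6.2 to 21) at Foxp2. Foxp1 acts in lymphocytes, heart and lung, Foxp4 in lung and heart, and Foxp2 is known for its part in speech. Foxp1 spans 5 groups of start sites in the basic annotation, and from 5' to 3' these held 61, 0, 17, 0 and 30 reads. Its 456 reads (415 to 500) were spread over 52 regions along 908 kb, the largest of which held 45 reads. Of the 3 start site groups of Foxp2, the first held the 12 reads and the other two none. Foxp3, the regulatory T cell factor, had no region by the basic annotation. Its most upstream start in the full annotation, chrX position 7573644, has 2 regions with 96 reads beside it, and these are also the promoter of Ppp1r3f, which could not be told apart from Foxp3 there.

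The broadly expressed genes Foxj2, Foxj3, Foxk1, Foxk2, Foxn2 and Foxn3 were open in 6 of 6 cases and held 2683 reads, the most of any group. Their promoters are all rich in CG pairs too, so that 6 of 6 stands beside the same 94.4%. Away from promoters they held 1.49 reads per kb of sequence nearest to them, against 0.947 for the mesenchymal and neural crest genes, 0.833 for FoxO, 0.344 for the members of other lineages and 0.322 for FoxP. Foxj2 alone gave 703 of their 1805 reads away from promoters, and without it the other 5 genes held 0.955 per kb, close to the mesenchymal and neural crest genes. The density away from promoters was not taken over all genes, so these values order the forkhead groups only among themselves. Foxj2 had 855 reads (799 to 914), the most of the 43 genes by the basic annotation, in 13 regions along 57.0 kb. Its promoter held 152 of them (129 to 178), in 1 region. A region 8.71 kb upstream, chr6:122810678-122811736, held 436 (396 to 479) and ranked 25 among the 96523 regions of the library outside promoters. It covers the start of the noncoding gene Gm5112. A further 111 reads lay 18.3 kb upstream at chr6:122801102-122802210, where the full annotation places a TSS of Slc2a3, a glucose transporter gene, and with that annotation Foxj2 had 674 reads and came second to Foxn3 with 797. The 80 reads in an intron 5.90 kb downstream, chr6:122826068-122826748, lie beside a further Foxj2 start in the full annotation.

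Foxn3, a checkpoint gene of the cell cycle, had 775 reads (721 to 832) in 55 regions along 510 kb. Its 215 promoter reads (187 to 246) lay at the downstream of 2 start site groups, with none at the upstream group of the basic annotation, and the 2 largest promoter regions held 122 and 77. The full annotation has Foxn3 starts further upstream, with 30 reads in 2 regions, and with it the promoter reads were 261. Introns of Foxn3 held regions of 68 and 55 reads, 145 and 164 kb downstream of the TSS. Foxn2 had 496 reads (453 to 542), with 246 (216 to 279) at its promoter and 200 of these in chr17:88440302-88441177. Its largest region elsewhere, chr17:88255641-88256462, held 101 reads 185 kb upstream in the noncoding gene AC165153.1. The intervals of Foxj2 and Foxn3 overlap, and so do those of Foxo3, Foxn2 and Foxp1, which follow them in the order of reads.

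Foxk1, which acts in muscle progenitors and in glycolysis, had 352 reads (316 to 391), with 60 at its promoter. Its largest region, chr5:142367146-142367966, held 115 reads 33.9 kb upstream of the TSS, between annotated genes. The 300 bases at its centre hold 38 CG pairs, at 1.1 times the number that their base composition gives, a value in the range of promoters. Foxk2 had 48 reads (35.4 to 63.6) and Foxj3 157 (133 to 184), and all of these lay at their promoters. The largest Foxj3 promoter region, chr4:119539267-119540005 with 109 reads, is also the promoter of Frg2f1.

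**Figure D3:**
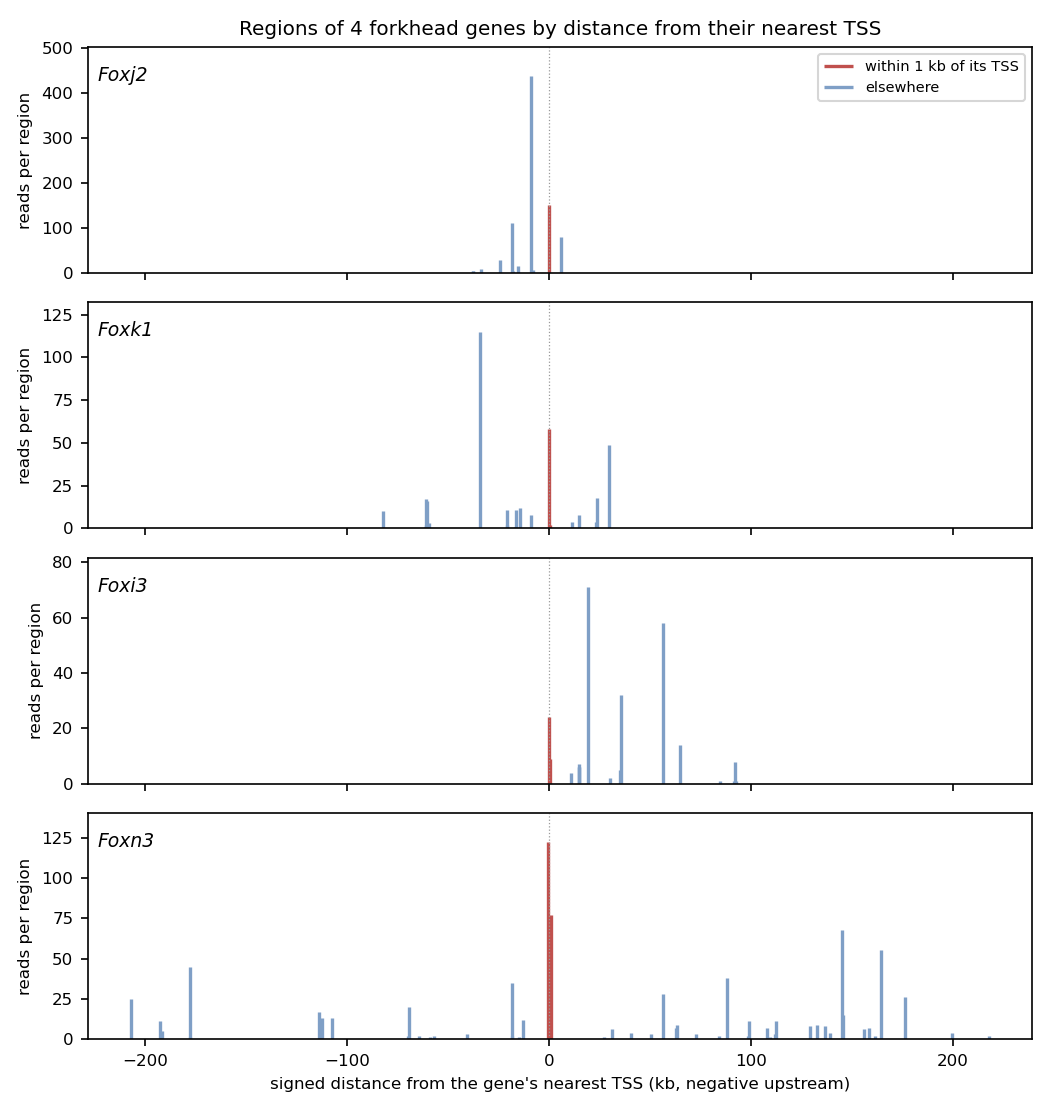
Reads per region against signed distance in kb from the nearest TSS of Foxj2, Foxk1, Foxi3 and Foxn3, with negative values upstream. The tallest region lies away from the promoter at Foxj2 (436 against 152 reads at the promoter), Foxk1 (115 against 58) and Foxi3 (71 against 24), while at Foxn3 it is the promoter with 122 reads.

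Foxm1, which drives genes of the G2 phase and mitosis, had 85 reads (67.9 to 105), all at its first start site and none at its second. Both of its regions also lie at the promoter of Rhno1, which runs the other way. Of 12 known FoxM1 targets, 12 had an open promoter, against 64.6% of all genes. CG-rich promoters, which 11 of the 12 have, were open in 94.4% of all such genes. The median of the 12 targets was 61 promoter reads, against 67 over open promoters and 27 over all protein-coding genes. Of the 12, 4 exceeded the median open promoter, against 32.2% of all genes. Aurka had 100 promoter reads, Cenpf 98 and Kif20a 69, and Ccnb2 had the fewest with 7.

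Among the 17 genes known mainly from other lineages, 7 had an open promoter, against 64.6% of all genes. Of these genes, Foxa3, Foxh1, Foxi1, Foxi2, Foxn1 and Foxr2 lack a CG-rich promoter, and the others have one. Over all genes, 34.1% without and 94.4% with a CG-rich promoter were open. Of the 1261 reads of the 17 genes, 17.6% lay at promoters. Foxa3 had 99 promoter reads (80.5 to 121), but all lay in 1 region 0.857 kb upstream of its TSS that is also the promoter of Sympk. Foxe3, a lens gene, had 43 (31.1 to 57.9), Foxi3, a gene of dental and hair epithelium, 33 (22.7 to 46.3) and Foxj1, the factor of ciliated cells, 31 (21.1 to 44.0). Of the 43 reads at Foxe3, 35 lay in a region across the 3' end of this short gene, and windows of 500 bp kept 8. Foxe1 had 6, and Foxa1 and Foxb2 5 each. Foxa2, Foxi1, Foxb1, Foxi2, Foxn4 and Foxn1 had 227, 128, 65, 41, 25 and 14 reads in regions elsewhere. With the full annotation Foxi1 had 78 reads. The 227 reads of Foxa2 came from 21 regions along 516 kb, the largest with 62 reads 160 kb upstream at chr2:148206519-148206926.

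Foxe3 and Foxi3 had most of their reads away from promoters. Foxe3 held 321 reads (287 to 358), and 118, 85 and 64 of them lay in regions 21.9, 16.7 and 11.6 kb upstream at chr4:114947511-114948414, chr4:114942476-114943018 and chr4:114937330-114937890. Each of these held more reads than the Foxe3 promoter, and the Foxd2 promoter lies in the same window. Foxi3 held 249 reads (219 to 282), with 71 in a region 19.4 kb downstream, chr6:70975688-70976371, and 58 in one 56.4 kb downstream, chr6:71012678-71013400. Its promoter region, chr6:70956242-70956731, held 24. The epithelial markers, with 84 promoter reads in sum and 0 at the enamel gene Amelx, stand beside this result, and their part in it was not tested.

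Most forkhead promoters are rich in CG pairs, and 6 of these had no region. A ratio of observed to expected CG pairs of at least 0.6, over 500 bp either side of a TSS, was found at 33 members, of which 27, or 81.8%, had an open promoter, against 94.4% of all genes with such a promoter. At least 10 promoter reads were found at 24 of the 33, or 72.7%, against 91.1%. The 6 without a region included Foxl1 (ratio 0.77), Foxb1 (0.72), Foxa2 (0.71), Foxn4 (0.65) and Foxr1 (0.63). Another 3 had a region with fewer than 10 reads, Foxe1 with 6 and Foxa1 and Foxb2 with 5 each. Of the 9, all but Foxl1 belong to the genes of other lineages. Of the 10 members with a lower ratio, 3, or 30.0%, were open, against 34.1% of all such genes, and these were Foxa3 (0.59), Foxd4 (0.52) and Foxs1 (0.39).

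**Figure D4:**
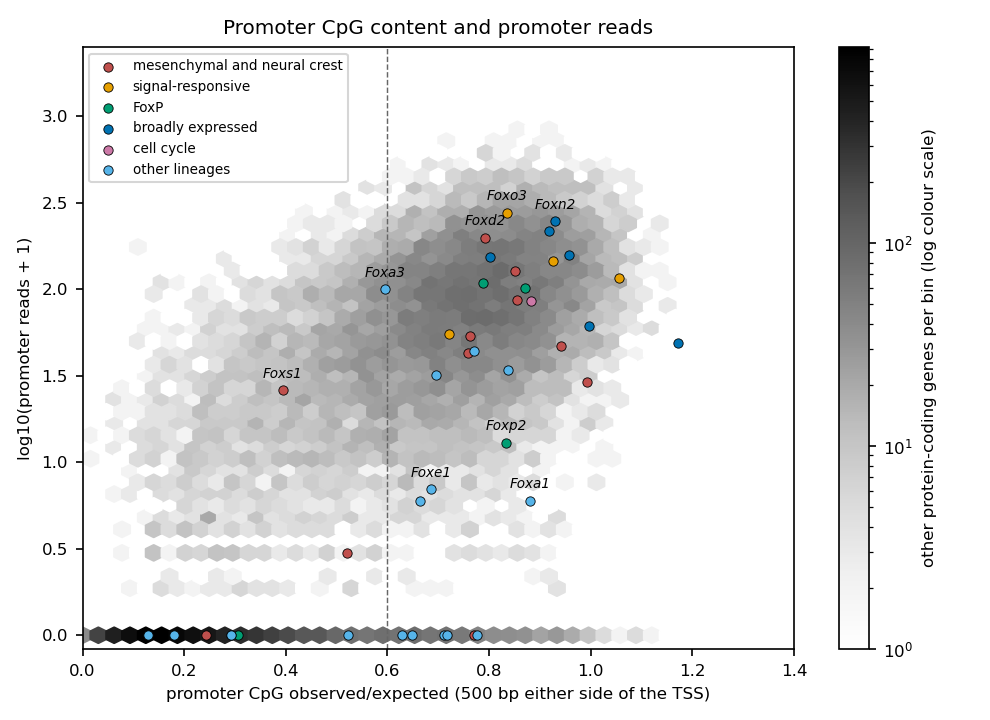
Promoter reads, as log10(reads + 1), against the ratio of observed to expected CG pairs for forkhead genes (points, coloured by role) over all other protein-coding genes (grey bins, darker for more genes). The dashed line marks 0.6; 6 forkhead genes to its right lie at 0 reads, and Foxs1 is the member with the lowest ratio, 0.39, that has an open promoter.

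The RefSeq promoter table (GRCm38.p6) held 27 of the members, with 32 promoters. For a member with several promoters the one with the most reads was used, or the first along the chromosome where reads were equal. The GC box GGGCGG occurred on either strand in 15 of 19 open members and 6 of 8 members without an open promoter, or 78.9% and 75.0%, against 35.7% of 32851 promoters of all genes. CCAAT was found in 42.1% and 62.5%, against 37.4%, and TATAAA in 5.26% and 25%, against 13.6%. The shares of all genes cover promoters of every CG content and were not taken for CG-rich promoters alone. They do not show whether forkhead promoters differ from others of like CG content. No region overlapped the stretch itself in Foxa1, Foxa3, Foxb2, Foxd4, Foxe3 and Foxn3, which count as open through regions outside it. The open members without a GC box, Foxb2, Foxd4, Foxe3 and Foxn3, are all among these, as is Foxa3, the open member with TATAAA. Every open member whose stretch overlapped a region had the GC box. The shares therefore do not compare open with closed stretches, and the letters are matches and not sites of binding.

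The forkhead motif TGTTTAC was sought on either strand in the 300 bases at each region's centre. Regions had a median width of 275 bases at forkhead genes and 261 over all, so this stretch often runs past its region. Stretches of abutting regions overlap, so the same motif can count more than once, and the intervals do not allow for this. TGTTTAC occurred at 40 of 518 regions of forkhead genes, or 7.72% (5.57 to 10.4), against 6.09% of all 121574 regions. Outside promoters the share was 8.71% (6.26 to 11.7), against 7.06% of all such regions, so the counting interval of the members takes in the share of all regions. At promoters 1 of 70 regions held it, a region of 49 reads at Foxo4, or 1.43%, against 2.39%. TGTTTGC was found in 6.37% of forkhead regions against 6.49% of all, and the shorter TAAACA, which is part of GTAAACA, in 22.6% (19.1 to 26.4) against 20.5%. In regions of at least 10 reads TAAACA was found in 25.8% (19.8 to 32.4) of forkhead regions against 18.6% of all. Of all the motifs and sets of regions compared, this is the only interval that lies above the share of all regions. It makes no allowance for the number of comparisons. TGTTTAC was found there in 8.08% (4.69 to 12.8) against 5.80%. At any read count, TAAACA outside promoters was found in 24.6% (20.6 to 28.8) of forkhead regions against 23.8% of all. At promoters it was found in 7 of 70 (4.12% to 19.5%) against 7.46%. Both intervals take in the share of all regions. Promoters made up 13.5% of forkhead regions against 20.6% of all. The subset of at least 10 reads was not split by place, so the part of place in its gap was not tested. Besides Foxi3 and Foxf2, motif regions of 39 reads each lay 2.15 and 4.68 kb upstream of Foxp1 start sites of the basic annotation, the first of them across a Foxp1 start of the full annotation, and one of 41 reads lay 104 kb upstream of Foxq1.

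By place, 70 of the 518 regions lay at promoters and 448 elsewhere. Promoters took 32.4% of forkhead reads, against 51.2% of all reads in the library. Noncoding genes took 15.8% of forkhead reads against 5.16%, and the 436 reads at Gm5112 near Foxj2 are part of this. Sequence between genes took 32.6% against 21.1%, and introns 17.6% against 20.9%. Of the 448 regions elsewhere, 191 lay upstream and 257 downstream, and 245 lay beyond 50 kb. Their median distance from a TSS was 58.9 kb, against 43.0 kb for all regions outside promoters, and their median read count was 6, as over all such regions. Open forkhead promoters lay within 1 kb of the TSS of a noncoding gene in 7 of 30 cases, or 23.3%, against 14.4% of all open promoters. Examples are Foxd2os at Foxd2 and Foxl2os at Foxl2. Without strand in ATAC-seq, the opening of the 2 genes of such a pair cannot be told apart.

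**Figure D5:**
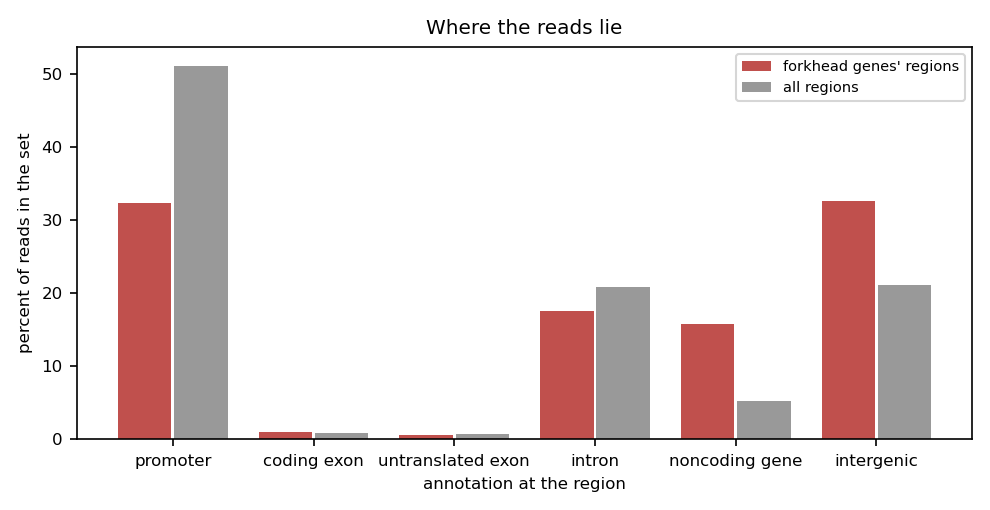
Percent of reads by annotation at the region, for the regions of forkhead genes and for all regions of the library. Promoters hold 32.4% of forkhead reads and 51.2% of all reads, and noncoding genes 15.8% and 5.16%.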

How the data were processed

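ATAC-seq was analysed from 4 samples, lanes 1 to 4 of 1 library. Per the labels' protocols, BWA-MEM placed the reads on mm10, MACS2 called the peaks and HOMER annotated them. STAR 2.6.1d and Partek stand in the submitters' processing notes with no role given. Not given in the sources used here are duplicate removal, the shift for the transposase and the libraries behind the region set. Any duplicates left in would raise single regions.

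The authors deposited expected counts per region for part of the genome (16382 regions). The authors also deposited CPM with 1 read added for 121574 regions. With 1 read worth 0.0484, 99.9% of values came out as whole reads (tolerance 0.01 read). Reads are therefore this multiple less 1, rounded to whole numbers; they differed from the expected counts by at most 0.0016 reads. The table's 1 value column without a sample was not used. The exception to the gene rule is in no count, and 1 other forkhead gene and 1 pathway gene that the rules take are in the counts but are not reported here by name.

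Genes, TSSs and classes came from GENCODE M21 (mm10); read-through models Gm20388 and Gm20696 were left out of the classes. Assignment and read recovery were checked on simulated data. The members and gene lists were chosen with earlier results of these data known. Full values were given for the 10 members with the most reads, the 6 with the most promoter reads and the FoxF and FoxC cluster genes; of each list, the 3 genes with the most and the 1 with the fewest promoter reads; Foxi3, Foxa2 and other single values were added after they were seen, as were the tissue markers. Alternatives were windows of 500 bp and 2 kb, minimum reads, other assignments and the full annotation. Python 3.11.15, pandas 2.3.3, scipy 1.17.1 and pysam 0.24.0 were used.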

Additional observations from a re-analysis of the deposited data

How the results depend on the processing

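Open promoters numbered 25 to 33 of 43 over all alternatives, against 30, and subfamilies 14 to 17, against 15. Windows of 500 bp lost Foxa3 and Foxd4, windows of 2 kb added Foxa2, Foxh1 and Foxq1, a minimum of 5 reads lost Foxb2 and Foxd4, and one of 10 reads lost Foxa1, Foxb2, Foxd4, Foxe1 and Foxp2. With start sites of the full annotation, an alternative chosen after seeing the data like the one without read-through models, Foxa2 and Foxp3 were added, for a count of 32. The number of members above the median gene was 14 when reads were divided by region length and 27 when promoters were left out (32.6% and 62.8%, against 39.4% and 38.9% of all genes), against 21. With regions of at least 10 reads the share of reads was 0.337% against 0.349%, and the chromosome 13 window held 1.52 reads per kb against 1.77. Windows ending 20 kb beyond the TSSs gave 1.98 and 4.66 reads per kb for chromosomes 13 and 8, and windows ending 100 kb beyond gave 1.49 and 2.38. The motif share was 22.6% with the shorter TAAACA and 5.41% in 200 bases. The cause of these changes was not tested. Reads of single genes moved beyond their counting interval in 19 of 43 with the 10-read minimum and in 4 with the full annotation. Promoter reads did so in 9 of 43 with windows of 500 bp, such as Foxe3 from 43 to 8 and Foxn3 from 215 to 138. They did so in 5 with windows of 2 kb and in 5 with the full annotation.

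No paired analysis was possible because the labels give 1 group and 1 library. Leaving out each lane in turn was not run, since lanes share 1 column. The library's depth leaves wide intervals for members with few reads, such as Foxd4 with 2 (0.242 to 7.22), and nothing here measures variation between animals.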
